A study of Mus musculus with 6 samples.

Results

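Guanylate-binding proteins (GBPs) are large GTPases of the dynamin superfamily, encoded in the mouse by 2 gene clusters on chromosomes 3 and 5. The members were taken by gene name, Gbp2 to Gbp11, from the deposited count table. Of 10 names, 9 were found among 35275 gene rows, and Gbp10 is not listed under its own name. RNA came from primary cultured microglia, the resident macrophages of the brain, of C57/BL6 mice, in 6 libraries. In 3 of them the microglia had been co-cultured for 2 days with regulatory T cells (Tregs) held in transwell inserts. Those Tregs had first spent 24 hours above brain slices taken 5 days after tMCAO (transient occlusion of the middle cerebral artery, a stroke model). The other 3 libraries were controls, microglia without Tregs, and no insert or slice exposure is recorded for them. Effects of the Tregs, of the insert and of material carried from the slices therefore cannot be told apart. The labels do not state whether replicates were separate cultures or animals, and p-values here cover only the sample-to-sample spread, which may be technical.

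GBP genes are induced by interferons, most of all by interferon-γ, in part through the interferon regulatory factors. In infected macrophages the proteins gather on pathogen vacuoles and on bacteria in the cytosol, together with the IRG family of immunity-related GTPases, and help to open them. They also feed lipopolysaccharide and DNA to inflammasomes, the complexes that activate inflammatory caspases. Several GBPs carry a lipid anchor at a C-terminal CaaX box, and their loading onto vacuoles uses the conjugation machinery of autophagy.

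Positions below are those of GENCODE M21 on GRCm38, joined by the identifier in each row. On chromosome 3, in the order of the chromosome, lay Gbp7 (142530342 to 142550149), Gbp3 (142560026 to 142573209), the row named Gbp5 and Gbp2 (142620602 to 142638008), all on the plus strand. The row named Gbp5 carries identifier ENSMUSG00000040264, which M21 assigns to Gbp2b (142594847 to 142619179). M21 gives Gbp5 another identifier, ENSMUSG00000105504, which is not a row of the table. Whether this row holds Gbp5 or Gbp2b cannot be told apart, and it is called the Gbp5 row here.

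On chromosome 5, all on the minus strand, lay Gbp8 (105014150 to 105139540), Gbp9 (105077630 to 105139539), Gbp4 (105115767 to 105139586) and Gbp11 (105323042 to 105346472), which M21 types as a polymorphic pseudogene. The M21 models of Gbp8, Gbp9 and Gbp4 overlap each other. The row named Gbp6 carries identifier ENSMUSG00000079362, which in M21 is Gm43302, a model from 105214907 to 105293695 that spans both Gbp10 and Gbp6. It is called the Gbp6 row, and it may hold reads of both genes. Of all 75-base stretches in Gm43302 transcripts, 89.9% also occur in Gbp6 and 60.2% in Gbp10. The share of such stretches found in any other gene's transcripts was 11.3% for Gbp7, 10.3% for Gbp11, 8.04% for Gbp8, 3.61% for Gbp9, 3.08% for Gbp4, 2.06% for Gbp3 and 0.955% for Gbp2. For these 7 members most stretches of 75 bases, the read length, were found in no other gene. For Gbp7, 10% of the stretches were shared with 1 pseudogene, Gm43802.

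The RefSeq promoter table (GRCm38.p6) holds the chromosome 3 members and Gbp2b. Their upstream sequences are shown because they carry matches to elements through which interferons act. The interferon-stimulated response element (ISRE) is bound by complexes that hold STAT2 and IRF9, and by other interferon regulatory factors. The gamma-activated site (GAS) is an element of genes that respond to interferon-γ. Each line gives the 250 bases before a start site on the plus strand, 5′ to 3′, with ISRE cores and GAS matches in capitals. On the printed strand each ISRE core reads as 2 TTTC repeats with 2 bases between them.

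Gbp5 (chr3:142496684-142496933): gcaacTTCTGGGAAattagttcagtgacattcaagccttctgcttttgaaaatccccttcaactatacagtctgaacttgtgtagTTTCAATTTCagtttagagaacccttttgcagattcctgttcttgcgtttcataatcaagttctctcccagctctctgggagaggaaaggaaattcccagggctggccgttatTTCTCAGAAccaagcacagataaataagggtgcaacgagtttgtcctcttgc
Gbp7 (chr3:142530086-142530335): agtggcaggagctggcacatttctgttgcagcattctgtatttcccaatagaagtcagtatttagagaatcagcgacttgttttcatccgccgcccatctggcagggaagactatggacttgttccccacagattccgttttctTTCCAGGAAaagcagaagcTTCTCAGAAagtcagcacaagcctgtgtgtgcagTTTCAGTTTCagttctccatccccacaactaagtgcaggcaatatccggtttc
Gbp3 (chr3:142559794-142560043): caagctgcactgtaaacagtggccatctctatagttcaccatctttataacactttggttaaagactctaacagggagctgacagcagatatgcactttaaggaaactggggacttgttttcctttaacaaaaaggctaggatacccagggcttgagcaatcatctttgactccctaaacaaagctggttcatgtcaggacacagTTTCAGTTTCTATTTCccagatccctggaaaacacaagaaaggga
Gbp2b (chr3:142594597-142594846): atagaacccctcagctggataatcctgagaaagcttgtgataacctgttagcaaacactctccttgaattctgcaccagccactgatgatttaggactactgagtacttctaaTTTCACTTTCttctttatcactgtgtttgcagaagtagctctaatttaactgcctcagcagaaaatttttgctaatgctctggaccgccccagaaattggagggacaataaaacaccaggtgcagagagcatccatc
Gbp2 (chr3:142620413-142620662): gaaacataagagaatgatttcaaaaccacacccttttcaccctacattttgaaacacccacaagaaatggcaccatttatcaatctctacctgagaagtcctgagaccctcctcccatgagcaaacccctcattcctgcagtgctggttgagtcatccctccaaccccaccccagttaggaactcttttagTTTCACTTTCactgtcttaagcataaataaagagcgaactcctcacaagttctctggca

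Both strands of 300 bases, 250 before and 50 after each start, were searched for 2 GAAA repeats with any 2 bases between them (the ISRE core), for TTCNNNGAA (GAS, its own reverse complement) and for TATAAA. These motifs do not overlap each other in the sequences shown, apart from the neighbouring ISRE cores of Gbp3. All 4 members with an entry held an ISRE core, a sequence found in 3.44% of 32851 promoters of that length. The second RefSeq start of Gbp3 held none, so 4 of 5 member entries did. The core lay from -59 to -50 in Gbp2 and from -53 to -44 in Gbp7, counted from the start site. In Gbp3 a pair of overlapping cores covered -45 to -30, and in Gbp5 and Gbp2b the core lay farther out, from -165 to -156 and from -137 to -128. GAS matches were present in 2 of 4 members, Gbp5 and Gbp7, against 8.3% of all promoters, and each of these promoters held 2 of them. Gbp2b, the M21 name for the identifier of the Gbp5 row, had an ISRE core but no GAS match. TATAAA was present in 1 of 4, Gbp3, against 13.6% of all promoters. The M21 model of Gbp2 begins before its RefSeq start and takes in its ISRE core. The M21 model of Gbp5 (142493978 to 142522344) takes in all of the upstream sequence printed for Gbp5. These are matches of letters, not measured binding.

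**Figure D1:**
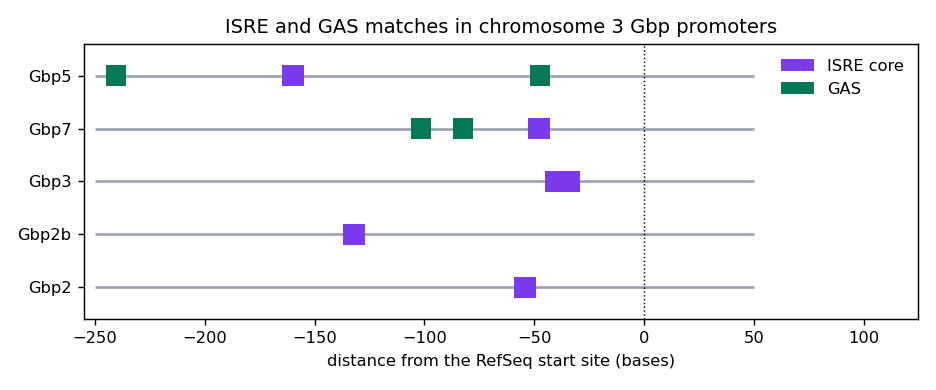
Positions of ISRE cores (purple) and GAS matches (green) in the 300-base promoters of 5 chromosome 3 genes, by distance in bases from the RefSeq start site (dotted line). Every promoter drawn holds an ISRE core, and Gbp5 and Gbp7 also hold GAS matches.

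Every GBP gene that could be tested was higher in Treg co-cultured microglia. All 8 tested members rose at least 3-fold, between 3.72-fold for Gbp9 and 22.4-fold for Gbp4, and in 8 of 8 the lowest co-cultured library was above the highest control. Of 13274 genes tested with edgeR's quasi-likelihood test, 50.9% were called at an adjusted p below 0.05, 25.9% higher and 25% lower. Of the genes tested, 2.73% were called and at least 3-fold higher, and 28.6% had co-cultured values all above the controls. The median log2 fold change was 2.81 over the 8 members and -0.01 over all genes tested. Among the rows whose name and M21 name are the same, 6 of 6 tested members rose. Gbp4 and Gbp8 passed the filter on low counts only through the co-cultured libraries, where they were high. Their part in these counts and in the median is therefore not separate support. In bulk samples, fewer cells of a type and less RNA per cell cannot be told apart.

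The count totals ran from 16972758 to 22084542 per library. The split of calls over all genes depended on scaling, with 50.8% of called genes higher under TMM scaling. That share was 40.0% when scaled by upper quartiles, 41.0% when scaled by library totals and 40.7% on FPKM. The members stayed higher under each of these scalings.

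**Figure D2:**
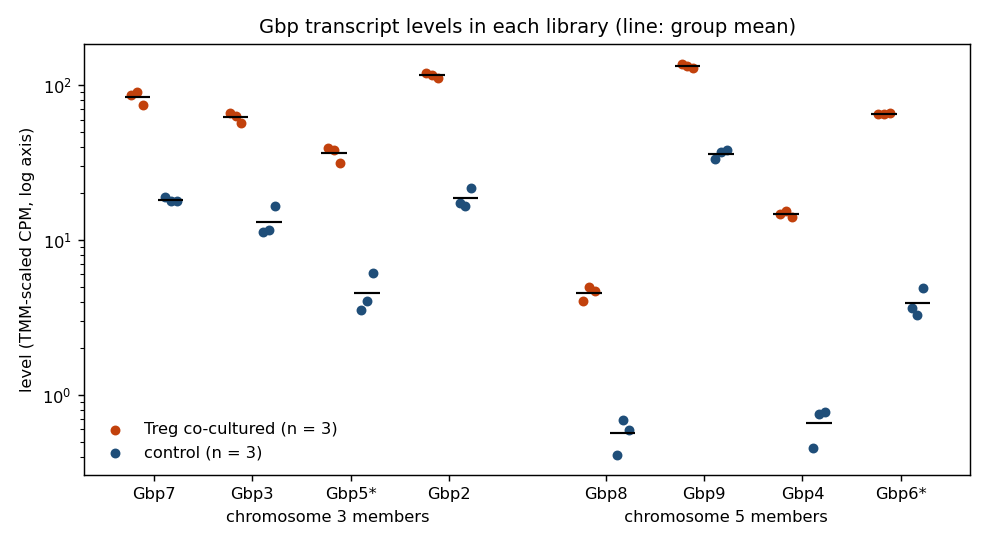
Level of each tested Gbp member in each library (TMM-scaled CPM, log axis), Treg co-cultured left (orange) and control right (blue), with a line at each group mean (n = 3); asterisks mark the Gbp5 and Gbp6 rows, whose identifiers M21 assigns to Gbp2b and to a model spanning Gbp6 and Gbp10. Co-cultured and control points do not overlap for any member.

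On chromosome 3, Gbp2 was the most abundant member per gene length in co-cultured cells. It encodes a GBP with a CaaX box that is needed in mice to control Toxoplasma. Its level, in CPM (counts relative to the TMM-scaled library total), was 121, 116 and 111 in the 3 co-cultured libraries, against 17.5, 16.7 and 21.8 in the controls. The groups stood far apart, and the co-cultured libraries lay within a narrow range. Gbp2 averaged 116 ± 4.73 CPM in co-cultured and 18.7 ± 2.75 CPM in control microglia (SD, n = 3 each), a 6.18-fold rise (log2 fold change 2.63, SE 0.075, adjusted p = 1.21e-21).

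Gbp3, whose protein moves to the Toxoplasma vacuole in mouse cells, had 66.5, 63.5 and 57.3 CPM in co-cultured libraries, against 11.3, 11.7 and 16.6 CPM in controls. The third control stood above the other controls but far below every co-cultured library. The rise was 4.72-fold (log2 fold change 2.24, SE 0.11, adjusted p = 3.82e-10).

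Gbp7, which in mice supports vacuole attack and the oxidative burst, had 86.1, 90.1 and 74.1 CPM in co-cultured libraries, against 19.0, 18.0 and 17.9 CPM in controls. Its controls were the tightest of the family. The rise was 4.57-fold (log2 fold change 2.19, SE 0.074, adjusted p = 5.29e-22).

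The Gbp5 row had 39.3, 38.3 and 31.6 CPM in co-cultured libraries, against 3.54, 4.04 and 6.14 CPM in controls. In mouse macrophages Gbp5 is known to promote NLRP3 inflammasome assembly, and Gbp2b is the mouse gene also called Gbp1. The groups were separate, with the third library the lowest of the co-cultured and the highest of the controls. The rise was 7.91-fold (log2 fold change 2.98, SE 0.15, adjusted p = 5.02e-11). On FPKM with a pseudocount of 1, which compresses low values, its log2 fold change was 2.34.

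On chromosome 5 the spread of responses was wider. Gbp9, whose protein also reaches the Toxoplasma vacuole in mouse cells, had the highest CPM of the family in both groups and rose least. It had 138, 134 and 130.2 CPM in co-cultured libraries, against 33.2, 36.8 and 38.1 CPM in controls. The groups were separate, and the spread within each was small beside the gap. The rise was 3.72-fold (log2 fold change 1.90, SE 0.06, adjusted p = 3.74e-23).

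The Gbp6 row had 65.4, 65.2 and 65.7 CPM in co-cultured libraries, against 3.63, 3.29 and 4.90 CPM in controls. Its co-cultured libraries were nearly equal, with a coefficient of variation of 0.396%, the lowest of the 8 members. Counting alone gives 2.7% at its mean co-cultured count, so these libraries lay closer together than counting error would give on average. The row averaged 65.5 ± 0.259 CPM in co-cultured and 3.94 ± 0.852 CPM in control microglia (SD, n = 3 each). The rise was 16.4-fold (log2 fold change 4.04, SE 0.10, adjusted p = 2.54e-26), or 3.04 on the log2 scale of FPKM with a pseudocount of 1.

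Gbp4, reported in mice to restrain IRF7, had 316, 327 and 291 counts in co-cultured libraries, against 10, 13 and 17 counts in controls. These counts correspond to 14.8 ± 0.664 CPM in co-cultured and 0.661 ± 0.180 CPM in control microglia (SD, n = 3 each). Gbp4 was thus near the low end of what was counted in controls and well above it in all 3 co-cultured libraries. The rise was 22.4-fold (log2 fold change 4.49, SE 0.19, adjusted p = 4.76e-20). On FPKM the log2 fold change was 3.74 with a pseudocount of 0.1 and 1.87 with a pseudocount of 1.

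Gbp8 had 86, 106 and 96 counts in co-cultured libraries, against 9, 12 and 13 counts in controls. The groups were separate at this low level, and its SE was the widest of the 8 tested members. The rise was 8.12-fold (log2 fold change 3.02, SE 0.26, adjusted p = 1.19e-11), and 1.19 on the log2 scale of FPKM with a pseudocount of 1.

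Gbp11 had 3, 2 and 3 counts in co-cultured libraries, against 0, 0 and 0 in controls. It did not pass the filter on low counts and was not among the genes tested. Summed over libraries its observed level in co-cultured microglia (0.127 CPM) was 2.59-fold a control floor of 3 counts over the group (0.049 CPM). Counting error of the co-cultured counts is not included, so this fold is not a lower bound. With no filter its adjusted p was 0.0614 by edgeR, and 0.0378 by limma on FPKM with a pseudocount of 0.1.

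**Figure D3:**
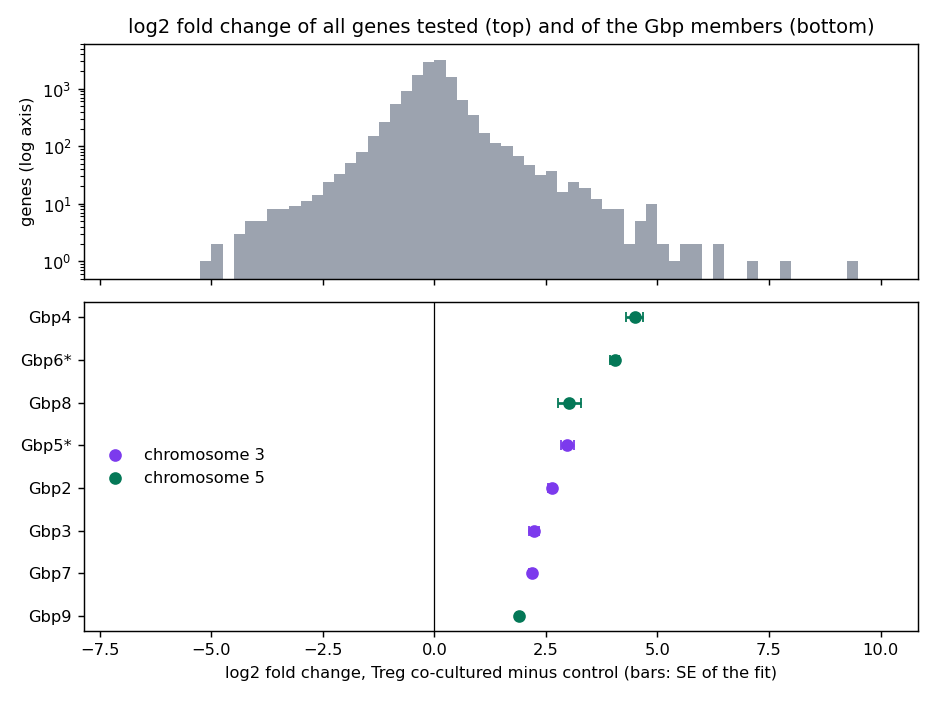
Log2 fold changes, Treg co-cultured minus control, of all 13274 genes tested (top, gene numbers on a log axis) and of the 8 tested Gbp members (bottom; bars are the SE of the fit, asterisks mark the Gbp5 and Gbp6 rows). Members run from 1.90 for Gbp9 to 4.49 for Gbp4, and chromosome 5 (green) holds both ends.

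Ranked by log2 fold change among the 13274 genes tested, Gbp4 was at place 28 from the top and the Gbp6 row at 35. Gbp8 was at 98, the Gbp5 row at 101, Gbp2 at 137, Gbp3 at 185, Gbp7 at 193 and Gbp9 at 258. Summed by cluster, the chromosome 3 members rose 5.46-fold, to 298 ± 21 CPM in co-cultured against 54.7 ± 6.71 CPM in control microglia. The chromosome 5 members rose 5.31-fold, to 219 ± 3.83 CPM in co-cultured against 41.2 ± 3.36 CPM in control microglia (SD, n = 3 each). On FPKM these sums rose 5.38-fold on chromosome 3 and 4.88-fold on chromosome 5. The folds of single members spread more widely on chromosome 5 than on chromosome 3.

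Levels of different genes were compared as FPKM, in which counts are divided by the length of the gene and by the library total. In co-cultured microglia the order was Gbp2 (45.01 ± 1.58 FPKM), Gbp9 (36.0 ± 0.844), Gbp3 (22.7 ± 1.60), the Gbp6 row (14.8 ± 0.125), Gbp7 (14.7 ± 1.46), the Gbp5 row (11.8 ± 1.31), Gbp4 (3.19 ± 0.148) and Gbp8 (1.82 ± 0.213 FPKM; SD, n = 3). The values of the Gbp6 row and Gbp7 overlapped, and all other neighbours in this order were separate. In controls the order was Gbp9 (10.1 ± 0.669 FPKM), Gbp2 (7.58 ± 1.09), Gbp3 (5.01 ± 1.10), Gbp7 (3.36 ± 0.127), the Gbp5 row (1.55 ± 0.461), the Gbp6 row (0.933 ± 0.199), Gbp8 (0.235 ± 0.0594) and Gbp4 (0.149 ± 0.0400 FPKM; SD, n = 3). Here the values of Gbp8 and Gbp4 overlapped. Gbp4 stood above Gbp8 in co-cultured microglia, and Gbp8 above Gbp4 on average in controls. The order of Gbp2 and Gbp9 in controls depended on the gene length. The FPKM values imply 3633 bases for Gbp9, whose M21 exons span 5173 bases, and 2516 bases for Gbp2 by either source. With M21 exon lengths, an alternative added after seeing the data, Gbp2 came first in both groups, with 45.01 FPKM in co-cultured and 7.58 FPKM in control microglia. Gbp9 then had 25.3 FPKM in co-cultured and 7.12 FPKM in control microglia, and the control values of Gbp2 and Gbp9 overlapped.

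Members held different shares of the summed Gbp FPKM, and for 6 of the 8 tested members the shares in co-cultured and control libraries did not overlap. Each of these had p = 0.1 by a two-sided exact permutation test, the smallest that 3 libraries against 3 allow. Gbp7 (9.78% in co-cultured and 11.7% in control microglia) and Gbp8 (1.21% in co-cultured and 0.813% in control microglia) overlapped, with an exact permutation p = 0.2 for each. Gbp9 held 24.0 ± 0.56% of the summed Gbp FPKM in co-cultured and 35.2 ± 2.5% in control microglia. The Gbp6 row held 9.89 ± 0.51% in co-cultured and 3.2 ± 0.35% in control microglia. Gbp2 held 30.0 ± 0.39% in co-cultured and 26.1 ± 1.2% in control microglia (SD, n = 3 each). Shares of the same sum are tied to each other, so Gbp9 held a smaller share in co-cultured microglia although its own level rose.

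Ratios of counts within a library, which need no scaling between libraries, were taken against Gbp9 for the other 7 tested members. Gbp9 rose least of the tested members, so higher ratios in co-cultured libraries follow from this choice and restate the fold changes. The Gbp6 row had 0.474, 0.488 and 0.505 counts per Gbp9 count in co-cultured libraries, against 0.109, 0.0893 and 0.129 in controls. Gbp4 had 0.107, 0.116 and 0.109 in co-cultured libraries, against 0.0137, 0.0204 and 0.0205 in controls. Gbp2 had 0.873, 0.87 and 0.854 in co-cultured libraries, against 0.526, 0.455 and 0.573 in controls. In 6 of 7 ratios every co-cultured library was above every control, and each of these had p = 0.1 by a two-sided exact permutation test (adjusted p = 0.117 over the 7 ratios). That is the smallest p that 3 libraries against 3 allow, so no ratio could pass 0.05. Gbp7 had 0.624, 0.675 and 0.569 in co-cultured libraries, against 0.571, 0.487 and 0.469 in controls, and its groups overlapped (exact permutation p = 0.2).

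**Figure D4:**
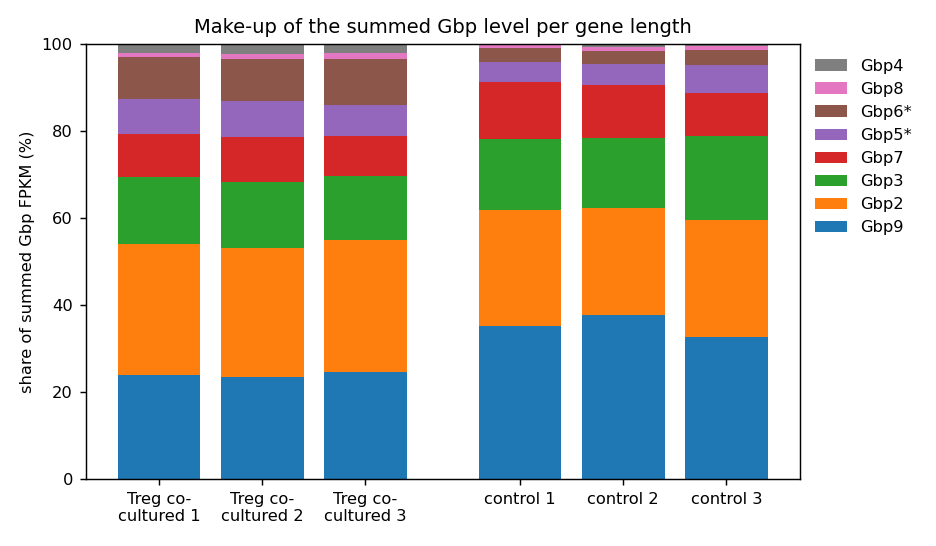
Share of the summed Gbp FPKM held by each tested member in each library (percent), Treg co-cultured at left and control at right, with asterisks on the Gbp5 and Gbp6 rows. Gbp9 (bottom) holds 24.0% on average in co-cultured and 35.2% in control libraries, and the Gbp6 row 9.89% in co-cultured and 3.2% in control libraries.

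For 7 of 8 members the coefficient of variation of CPM was larger among controls than among co-cultured libraries. Gbp7 was the exception, with 9.98% in co-cultured and 3.31% in control microglia. The median coefficient of variation of the 8 members' CPM was 6.0% in co-cultured and 22% in control microglia, while over all genes tested it was 7.14% in co-cultured and 6.93% in control microglia. The medians over all genes take in genes of any level, and no share over all genes stands beside the 7 of 8. Member counts were lower in controls, so counting alone gives every member a larger coefficient there. For Gbp2 it gives 2.02% in co-cultured and 5.11% in control microglia. At the mean control counts of Gbp4 and Gbp8, counting alone gives 27.4% and 29.7%, and their measured values in controls were 27.3% and 25.6%. The third control was the highest control for 6 of 8 members, and was so for 37.4% of all genes tested. The third co-cultured library was the lowest of its group for 6 of 8 members, and was so for 33.6% of all genes tested. Without the third control the log2 fold changes kept their direction and calls in all 8 members.

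The tested genes directly next to both clusters were not called. Genes not called are common in these data, where 50.9% of all genes tested were called. The flanking genes, 3 on each side, were chosen after values had been seen. On chromosome 3, Pdlim5 lay 134646 bases before Gbp7, with a log2 fold change of -0.08 (adjusted p = 0.241). Gtf2b lay 127037 bases after Gbp2, with -0.13 (adjusted p = 0.177), and its co-cultured values were all below its controls. On chromosome 5, Abcg3 lay 31432 bases from the cluster, with 117, 99 and 117 counts in co-cultured libraries, against 115, 111 and 115 counts in controls. Its log2 fold change was -0.09 (adjusted p = 0.677), and that of Lrrc8b, 69303 bases from the other end, was -0.05 (adjusted p = 0.796). Farther out, Pkn2 (0.18), Lmo4 (0.39), Lrrc8c (0.41) and Unc5c (1.21) passed the test. Unc5c did so at a low level, 0.873 CPM in co-cultured against 0.370 CPM in control microglia (adjusted p = 0.0239).

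**Figure D5:**
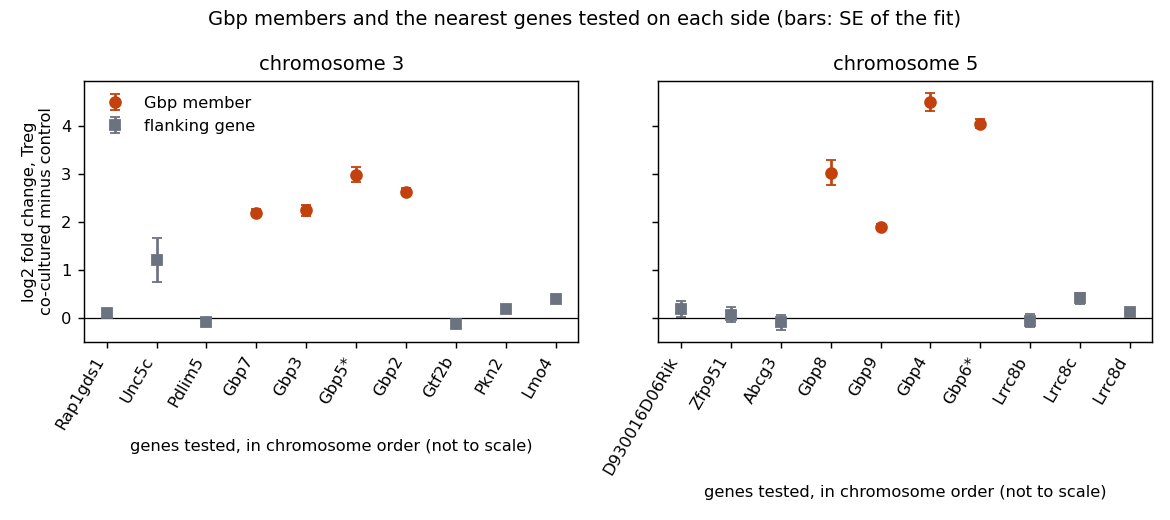
Log2 fold change, Treg co-cultured minus control, of the tested Gbp members (orange circles) and the 3 nearest tested genes on each side (grey squares) in chromosome order, not to scale; bars are the SE of the fit and asterisks mark the Gbp5 and Gbp6 rows. Members lie between 1.90 and 4.49, and the genes directly next to the clusters lie between -0.13 and -0.05.

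Outside the family, the genes with the pattern most like the median member over the 6 libraries were Phf11b, Phf11d, Pla2g7, Tgfbi and Oas2. Likeness was the root mean square difference of log2 CPM, each gene relative to its own control mean, and was 0.07 for Phf11b and 0.124 for Oas2. Members themselves ranged from 0.092 for Gbp2 to 1.144 for Gbp4. Phf11b had 165, 163 and 166 CPM in co-cultured libraries, against 21.1, 24.99 and 28.2 CPM in controls. Pla2g7, a secreted phospholipase that cleaves platelet-activating factor, had 47.1, 43.9 and 48.0 CPM in co-cultured libraries, against 5.99, 6.18 and 9.12 CPM in controls. Oas2, an interferon-induced sensor of double-stranded RNA, had 278, 285 and 261 CPM in co-cultured libraries, against 44.2, 43.1 and 46.7 CPM in controls. Their separation between the groups follows from how they were chosen.

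The IRG GTPases, which act on vacuoles beside the GBPs, and other interferon-inducible GTPases rose in 13 of 13 tested genes, with a median of 2.20 on the log2 scale. Over all genes tested 25.9% rose. Iigp1, which loads onto vacuole membranes, had 77.3, 75.8 and 66.9 CPM in co-cultured libraries, against 2.13, 2.83 and 3.30 CPM in controls (log2 fold change 4.74, adjusted p = 4.93e-26). Tgtp2, another IRG GTPase, averaged 31.5 CPM in co-cultured and 0.664 CPM in control microglia (log2 fold change 5.54, adjusted p = 1.7e-24). With a pseudocount of 1 on FPKM these were 3.66 for Iigp1 and 3.26 for Tgtp2. Irgm1, a regulator that keeps other IRG proteins off self membranes, rose less, to 225 CPM in co-cultured against 67.1 CPM in control microglia (log2 fold change 1.75, adjusted p = 4.47e-23). Gm4951 had 82.9 ± 4.95 CPM in co-cultured and 6.48 ± 0.521 CPM in control microglia (log2 fold change 3.67, adjusted p = 3.26e-27; SD, n = 3 each). Within the co-cultured group the first library was the highest for 13 of 13 of these genes, against 34.5% of all genes tested, and for 4 of 8 Gbp members.

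Transcripts of the interferons themselves were almost uncounted. Of 21 ligand genes none passed the filter, and 15 had no count in any library. Ifng, the gene of interferon-γ, had 1, 1 and 0 counts in co-cultured libraries, against 0, 0 and 0 in controls. Ifnb1 had 0, 5 and 3 counts in co-cultured libraries, against 0, 0 and 0 in controls, and Ifna5 had 2, 0 and 1 against 0, 0 and 0. Ifnz had 1, 0 and 0 counts in co-cultured libraries against 0, 0 and 0, Ifnk had 0, 1 and 0 against 0, 0 and 2, and Ifnab had 0, 0 and 0 against 0, 0 and 1. At these counts a difference was not detectable, and the RNA of the Tregs in the inserts was not measured.

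Of 15 receptors and transducers of interferon signals, 9 rose and 1 fell, while 5 missed the threshold. Their median log2 fold change was 0.40. Over all genes tested 25.9% rose and 25% fell, with a median of -0.01. Stat2 and Irf9, whose proteins act at ISREs, rose by 2.10 (adjusted p = 1.46e-25) and by 0.61 on the log2 scale (adjusted p = 1.89e-11). Irf1, a factor that acts on GBP promoters, had 82.1, 77.1 and 63.3 CPM in co-cultured libraries, against 35.2, 34.8 and 44.4 CPM in controls (log2 fold change 0.96, adjusted p = 0.000137). Jak2, the kinase bound to the interferon-γ receptor, rose by 0.61 on the log2 scale (adjusted p = 1.95e-10).

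Neither receptor chain of interferon-γ was called higher. Ifngr1, the ligand-binding chain, fell to 114 ± 1.10 CPM in co-cultured against 153 ± 3.93 CPM in control microglia (log2 fold change -0.42, adjusted p = 1.38e-08). Ifngr2, the signalling chain, had 180 ± 6.15 CPM in co-cultured and 176 ± 4.94 CPM in control microglia and was not called (log2 fold change 0.03, adjusted p = 0.625).

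Of 13 inflammasome genes linked to GBPs, 10 rose, against 25.9% of all genes tested, and 3 missed the threshold. The median over the list was 0.33 on the log2 scale. Casp4, which encodes the mouse lipopolysaccharide-sensing caspase-11, averaged 40.0 ± 0.888 CPM in co-cultured and 22.1 ± 1.67 CPM in control microglia (log2 fold change 0.85, adjusted p = 1.21e-11). Gsdmd, the pore-forming protein it cleaves, rose to 71.0 ± 3.04 CPM in co-cultured against 47.6 ± 3.23 CPM in control microglia (log2 fold change 0.58, adjusted p = 1.39e-09). Nlrc4, an adaptor for bacterial protein sensing, rose by 1.97 on the log2 scale (adjusted p = 9.17e-18), and Il18, a cytokine that caspase-1 matures, by 1.33 (adjusted p = 2.76e-11). Aim2, the cytosolic DNA sensor, had 34.9, 38.6 and 38.1 CPM in co-cultured libraries, against 38.3, 38.8 and 34.0 CPM in controls, and its groups overlapped (log2 fold change 0.01, adjusted p = 0.925). The other genes not called were Nlrp3 and Il1a, named after their values were seen.

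Of 10 autophagy conjugation genes, through which GBPs are loaded onto vacuoles, 5 fell, 1 rose and 4 missed the threshold, with a list median of -0.21 on the log2 scale. The share called in either direction was near the 50.9% of all genes tested. The share that fell was above the 25% of all genes tested that fell. Gabarapl1, a ubiquitin-like protein attached to membranes, had 82.8, 78.5 and 79.1 CPM in co-cultured libraries, against 188, 201 and 197 CPM in controls (log2 fold change -1.28, adjusted p = 3.4e-20). Of its relatives, 3 fell, Map1lc3a with a log2 fold change of -1.18, Map1lc3b with -0.60 and Gabarapl2 with -0.51 (adjusted p = 4.55e-14, 1.01e-11 and 1.14e-06). Gabarap itself, named after its values were seen, was not called, at 240.4 ± 16.4 CPM in co-cultured and 235 ± 14.7 CPM in control microglia (SD, n = 3 each; log2 fold change 0.03, adjusted p = 0.679). The gene that rose, named after its values were seen, was Atg16l1, part of the conjugating enzyme, at 55.4 CPM in co-cultured and 46.2 CPM in control microglia (log2 fold change 0.26, adjusted p = 0.000891).

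Of 6 CaaX prenylation genes, 2 rose, 2 fell and 2 missed the threshold, with a list median of 0.11 on the log2 scale. Over all genes tested 25.9% rose and 25% fell, and the counts of this short list lie near those shares. Fnta, the subunit shared by both prenyltransferases, fell with a log2 fold change of -0.50 (adjusted p = 9.54e-07). Fntb, the farnesyltransferase subunit, had -0.40 (adjusted p = 0.011), and its call was lost without the first co-cultured library (adjusted p = 0.0769) or without the third control (adjusted p = 0.0623). Pggt1b, the matching subunit of the other prenyltransferase, rose by 0.24 on the log2 scale (adjusted p = 0.00324), a call that was lost on FPKM, and Icmt, which methylates the processed end, by 0.25 (adjusted p = 0.0004).

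Of 10 genes that act with GBPs or with ubiquitin-like tags at the vacuole, 7 rose, 1 fell and 2 missed the threshold, and the list's median was 1.31 on the log2 scale, against 25.9% risen and a median of -0.01 over all genes tested. Rnf213, a giant ubiquitin ligase, rose to 3708 ± 310 CPM in co-cultured against 1133 ± 96.4 CPM in control microglia (log2 fold change 1.71, adjusted p = 1.91e-16). Usp18, which removes the tag ISG15, rose by 2.40 on the log2 scale (adjusted p = 8.06e-24), Ube2l6, the enzyme that attaches it, by 1.53 (adjusted p = 7.45e-21), and Trim21, an antibody receptor and ubiquitin ligase, by 1.30 (adjusted p = 8.36e-16). Sqstm1 and Traf6 were not called and Calcoco1 fell with a log2 fold change of -0.77 (adjusted p = 2.07e-08), all 3 named after their values were seen.

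Markers showed microglia in both groups, with 12 of 12 listed genes passing the filter, among them Csf1r, C1qa and Tmem119. Their summed level was 7530 to 8060 CPM in co-cultured and 8860 to 9520 CPM in control libraries, with 4 genes higher and 7 lower. The T cell list was mixed. Ctla4, Trac and Cd2 had no count in any library, Cd3d and Cd3g had at most 1, and Cd3e had 10, 2 and 3 counts in co-cultured libraries, against 0, 0 and 0 in controls. The T cell list summed to 49.0 to 53.4 CPM in co-cultured and 116 to 130 CPM in control libraries, mostly from Cd28, and 4 of its 12 genes were tested. Cd4 rose, with 135, 133 and 136 counts in co-cultured libraries, against 41, 42 and 72 in controls (log2 fold change 1.34, adjusted p = 2.14e-07). Foxp3, the factor that defines Tregs, fell, with 38, 36 and 29 counts in co-cultured libraries, against 79, 53 and 66 in controls (log2 fold change -0.98, adjusted p = 0.000429). Cd28 fell too, with 847, 941 and 907 counts in co-cultured libraries, against 2711, 2158 and 2384 in controls, and Lck was not called. Of 9 genes of monocytes and border macrophages 4 were tested and 3 rose. The list summed to 1170 to 1260 CPM in co-cultured and 710 to 751 CPM in control libraries. Ms4a7 had 568 CPM in co-cultured and 438.5 CPM in control microglia, and Mrc1 had 448 CPM against 270 CPM. Pf4 had 185 CPM in co-cultured and 24.8 CPM in control microglia, a 7.47-fold rise. Ccr2 was tested and not called, and Ly6c2 had 1 count in all. The genes of this list were named after their values were seen. The share of counts from mitochondrial genes averaged 0.700% in co-cultured and 1.36% in control libraries. The part of these differences in the Gbp values was not tested.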

How the data were processed

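RNA from 6 samples of primary microglia was sequenced, 3 Treg co-cultured and 3 control. Per the labels' protocols, RNA was copied to cDNA (SMART-Seq HT), tagmented (Nextera XT) and read as paired 75-base reads. Per the submitters' processing notes, STAR (no version given) and HTSeq 0.11.2 were used with GRCm38. Annotation release and strand setting were not given in the sources used here, so reads of overlapping genes may be shared or lost. The authors deposited a table of raw read counts by gene and a table of FPKM values, in which each count is divided by the gene's length and the library's total. The length implied by the FPKM values was the same in all 6 samples within 1e-06 for 12011 of 12011 genes with at least 10 counts in each sample.

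The counts keyed by identifier (35275 rows) were tested with edgeR 4.0.16 (R 4.3.3): filterByExpr with defaults, TMM scaling, a robust quasi-likelihood fit (legacy mode) on group, the two-sided F-test and Benjamini-Hochberg adjustment over all 13274 genes tested, called at 0.05. The fit was tested on simulated data. FPKM was tested with limma 3.58.1 on log2(FPKM + pseudocount), which understates changes of low genes. DESeq2 1.42.0 was an alternative. For the gene tests 17 alternatives were run. The library totals were 22084542, 21531638 and 20987384 counts in co-cultured and 21465960, 16972758 and 21431220 counts in control samples. PCR copies were not marked by molecular identifiers, so the floor covers counting error only. Libraries of 1 group differed beyond sampling noise (chi-square per gene 3.13 to 9.54), and none was treated as a copy.

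The identifiers of 97.8% of rows were in GENCODE M21, whose release may differ from the authors'. Names of 27 rows that a spreadsheet had turned into dates were restored. Named genes are the members, up to 4 genes of each of 7 lists with the smallest adjusted p, interferon ligands with a count, Irf1, Ifngr1, Ifngr2, Casp4, Gsdmd, Aim2, and the 5 genes outside the family most like the median member with 5 CPM or more on average in 1 of the groups, leaving out predicted, clone-named and pseudogene entries. Some genes this rule names are not reported here. Gbp2b, also to be named, has no row of that name, and Tgtp1 did not pass the filter. The members and lists were chosen with earlier results of these data known. Protein features of the members were not analysed here.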

Additional observations from a re-analysis of the deposited data

How the results depend on the processing

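Each of the 8 tested members stayed higher and called under all 17 alternatives, and the count of called members was 8 in all but 1. With no filter on FPKM (pseudocount 0.1) it was 9, the addition being Gbp11. Over all genes, 6752 were called in the main analysis and 5770 to 6821 under the alternatives, with 6028 to 6455 when single libraries were left out. Upper-quartile scaling called 2731 genes higher and 4090 lower, against 3432 higher and 3320 lower with TMM. With the replicate number as a block, 6755 genes and 8 members were called. Samples of the same number did not deviate together (correlations -0.033, -0.023 and -0.027), and no sample correlated best with its own number. The summed chromosome 5 members had a log2 fold of 2.29 on FPKM and 2.41 on TMM-scaled CPM, beyond the spread between replicates. With M21 exon lengths, added after seeing the data, the log2 ratio of Gbp9 to Gbp2 FPKM was -0.83 in co-cultured and -0.09 in control microglia, against -0.32 in co-cultured and 0.42 in control microglia as deposited. With the stricter GAS letters TTCCNGGAA, 1 member in place of 2 held a match. Genes near 0 changed sign. Ifngr2 had -0.04 under upper-quartile scaling and -0.03 with library totals and on FPKM with either pseudocount or no filter. Aim2 had -0.06 under upper-quartile scaling, library totals and FPKM with pseudocount 0.1, with or without the filter, and -0.05 with pseudocount 1. With single libraries left out Aim2 lay between -0.05 and 0.06, below 0 without co-cultured library 2 (-0.02), co-cultured library 3 (-0.01) or control library 3 (-0.05). The causes were not tested. Depth limits Gbp11 and the interferon ligands, and control counts of 9 to 17 limit the folds of Gbp4 and Gbp8.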
